A study of Saccharomyces cerevisiae with 12 samples.

Results

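The genes described are the Hsp90 chaperone pair of Saccharomyces cerevisiae, HSP82 and HSC82, and 8 genes of proteins that work with Hsp90: STI1, CPR6, AHA1, HCH1, SBA1, CDC37, CPR7 and CNS1. They were taken by their systematic names (YPL240C, YMR186W, YOR027W, YLR216C, YDR214W, YNL281W, YKL117W, YDR168W, YJR032W and YBR155W, in that order), and all 10 were found among the 6713 targets of every library and passed the filter on low counts. Messenger RNA was sequenced from 12 libraries of S288c yeast, 3 from each of 4 strains: wild type, RPD3 KO (without the histone deacetylase gene RPD3), RPD3 S418A (a serine of Rpd3 replaced by alanine) and SWI3 S237A (serine to alanine in Swi3, a subunit of the SWI/SNF remodeller). Per the labels every culture grew in synthetic defined medium to a common optical density. A treatment text shared by all samples speaks of caffeine for part of them, but no label gives caffeine to any of these 12 libraries. How the alleles were made, whether a strain is 1 clone and whether its 3 libraries are separate cultures are not in the labels, so p-values measure the spread between these libraries.

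Hsp90 is an ATP-driven dimeric chaperone that acts late in the folding of chosen client proteins, among them protein kinases and transcription factors. Cochaperones set its cycle: some pass clients from Hsp70 to Hsp90, some speed or slow the ATPase, and some hold the closed, ATP-bound dimer. In yeast the paralogues HSP82 and HSC82 encode nearly the same protein; HSP82 is known as the strongly heat-inducible copy and HSC82 as the copy with high basal expression, and the heat shock factor Hsf1 activates both.

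Total estimated counts ran from 18.3 to 27 M per library. The RPD3 transcript had 0 counts in all 3 RPD3 KO libraries and 2186 to 2567 counts in every other library, and SWI3 was expressed in all 12. Point mutations cannot be seen in these counts. Values below are CPM (counts scaled to a common library total, with TMM factors) as mean ± SD with n = 3, or log2 fold changes ± SE with edgeR quasi-likelihood p-values, Benjamini-Hochberg adjusted over 6327 tested targets; a gene passed at an adjusted p under 0.05. CPM compares a gene between strains, and TPM (abundance per transcript length) compares genes with each other.

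Of the 10 genes, 8 fell and 1 rose in RPD3 KO against wild type, where 38.0% of all tested targets fell and 31.9% rose. In SWI3 S237A against wild type 8 fell and 1 rose as well, against 31.3% and 28.7% of all targets. Under scaling by total counts only, 2650 targets rose and 1749 fell in RPD3 KO, in place of 2018 and 2406, and the median of all targets shifted by 0.18 on the log2 scale. Falls of at least 2-fold were 6 of the 10 genes in RPD3 KO, against 12.5% of all targets, and 5 of 10 in SWI3 S237A, against 7.21%. The median log2 fold change of the 10 was -1.76 in RPD3 KO and -1.25 in SWI3 S237A, beside -0.06 and -0.02 over all tested targets. In RPD3 S418A against wild type edgeR called 0 of the 10, beside 0.822% of all targets higher and 1.20% lower; 1 of the 10, STI1, had an unadjusted p under 0.05, and DESeq2 likewise called 0. These 3 comparisons share the wild-type libraries.

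**Figure D1:**
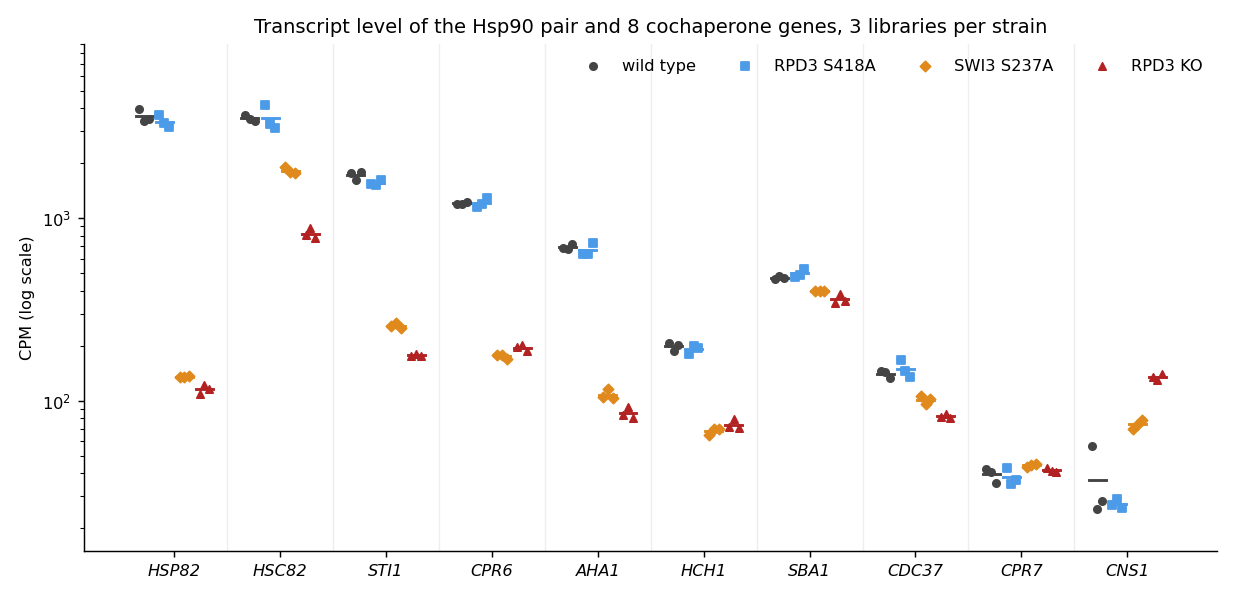
CPM of the 10 genes on a log axis, 3 libraries per strain; each point is a library and each bar the mean of a strain. HSP82 drops from 3149 CPM or more in wild type and RPD3 S418A to 137 or less in SWI3 S237A and RPD3 KO, CPR7 stays between 35.0 and 44.7 throughout, and CNS1 runs the other way.

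HSP82 (chromosome XVI, 96496 to 98625, R64) stood at 3961, 3412 and 3500 CPM in wild type replicates 1, 9 and 17 and at 3678, 3311 and 3149 in RPD3 S418A replicates 3, 11 and 19. It stood at 134, 135 and 137 CPM in SWI3 S237A replicates 2, 10 and 18 and at 109, 121 and 115 in RPD3 KO replicates 4, 12 and 20. The first and second pair of strains are separated by more than a factor of 20 with no overlap, and the SWI3 S237A libraries lie just above those of RPD3 KO. The fall against wild type was 31.5-fold in RPD3 KO (log2 -4.98 ± 0.10, adjusted p = 8.61e-13) and 26.7-fold in SWI3 S237A (log2 -4.74 ± 0.09, adjusted p = 3.39e-12).

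HSC82 (chromosome XIII, 632355 to 634472) began from the same level and fell much less. It had 3677, 3500 and 3426 CPM in wild type and 4149, 3289 and 3130 in RPD3 S418A, against 1899, 1783 and 1773 in SWI3 S237A and 811, 879 and 777 in RPD3 KO. Wild type and RPD3 S418A overlap, SWI3 S237A is lower than both, and RPD3 KO is the lowest. The fall was 4.30-fold in RPD3 KO (log2 -2.10 ± 0.10, adjusted p = 2.79e-09) and 1.94-fold in SWI3 S237A (log2 -0.96 ± 0.10, adjusted p = 4.66e-06), and SWI3 S237A was 2.21-fold above RPD3 KO (log2 1.14 ± 0.10, adjusted p = 7.74e-07).

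Stretches of the HSP82 and HSC82 coding sequences are shown because reads from part of their length can fit either gene. Over 2115 aligned bases they are 92.4% identical, with 160 differences and a longest identical run of 113 bases, and 325 of the 2100 words of 31 bases in HSP82 (15.5%) also occur in HSC82. The other 8 genes share 0 such words with any of the 6027 reference coding genes searched. The 687 targets not matched to the reference were not searched. Like the pair, CPR6 had estimated counts that were not whole numbers, such as 25928.3 in wild type replicate 1 and 4855.36 in RPD3 KO replicate 4. Whether CPR6 reads are shared with an unsearched target was not tested, and its values below carry that limit. The 90 aligned bases with the most differences (capitals, 18 positions) are, 5′ to 3′ on the coding strand of R64, chrXVI:97318-97407 (minus strand) and chrXIII:633561-633650 (plus strand).
HSP82: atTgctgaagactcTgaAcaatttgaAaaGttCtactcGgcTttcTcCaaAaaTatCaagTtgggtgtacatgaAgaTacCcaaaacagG
HSC82: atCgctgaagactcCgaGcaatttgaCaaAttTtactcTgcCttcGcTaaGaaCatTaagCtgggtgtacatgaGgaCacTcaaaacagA
The last 60 coding bases before the stop codon are given because the end of Hsp90 is where cochaperones with tetratricopeptide repeat (TPR) domains dock; the last 15 bases, which encode that docking motif, are in capitals (chrXVI:96499-96558, minus strand, and chrXIII:634410-634469, plus strand).
HSP82: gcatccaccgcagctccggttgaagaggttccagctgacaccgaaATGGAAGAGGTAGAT
HSC82: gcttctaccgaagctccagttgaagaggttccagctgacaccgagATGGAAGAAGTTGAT

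Because reads can be split between the copies, the pair was also summed, which does not depend on the split. The sum fell 7.64-fold in RPD3 KO (log2 -2.93 ± 0.10, adjusted p = 6.76e-11) and 3.66-fold in SWI3 S237A (log2 -1.87 ± 0.09, adjusted p = 4.52e-09). RPD3 S418A did not pass against wild type, with an interval from -0.25 to 0.14 on the log2 scale (log2 -0.05 ± 0.09, adjusted p = 0.787). SWI3 S237A lay 2.08-fold above RPD3 KO (log2 1.06 ± 0.09, adjusted p = 5.89e-07). Fewer cells with a transcript and less of it per cell cannot be told apart in bulk RNA.

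The make-up of the Hsp90 message changed with its amount. HSP82 gave 51.5, 49.1 and 50.3% of the summed TPM of the pair in wild type and 46.8, 49.9 and 49.8% in RPD3 S418A. It gave 11.8, 11.9 and 12.7% in RPD3 KO and 6.49, 6.92 and 7.11% in SWI3 S237A. The share was thus lowest in SWI3 S237A and not in RPD3 KO, where HSP82 itself was lowest and HSC82 lower than in SWI3 S237A. The share differed between strains in an exact permutation test over all 369600 assignments of the 12 libraries to 4 groups of 3 (p = 0.00026, where the smallest p it can give is 6.49e-05). That test takes the 4 strains at once and does not compare SWI3 S237A with RPD3 KO.

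**Figure D2:**
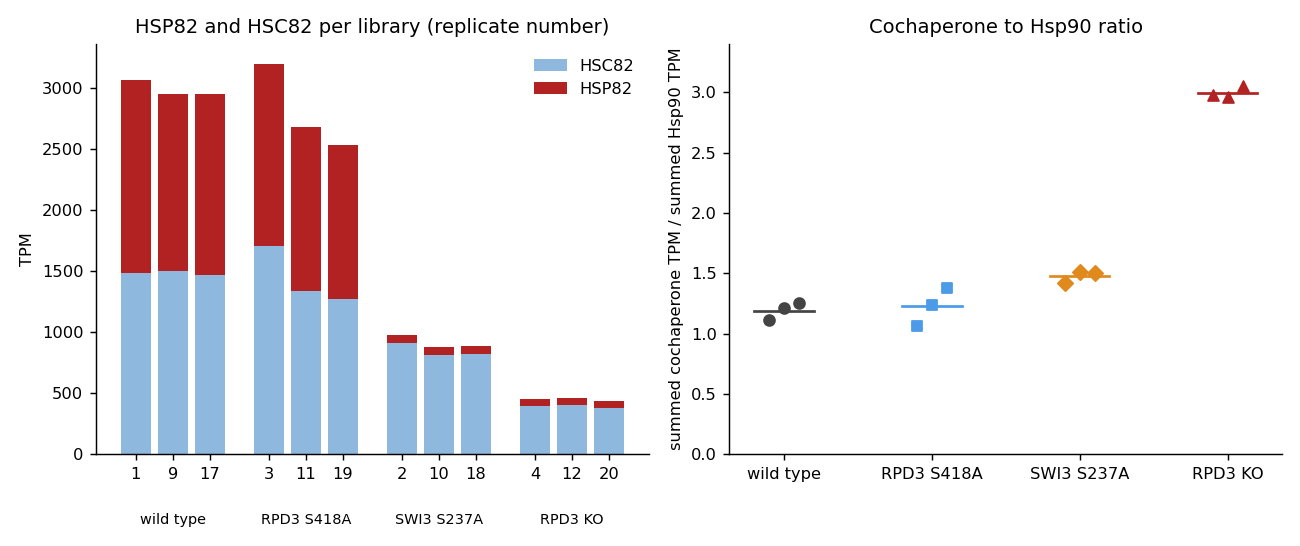
Left, TPM of HSC82 and HSP82 stacked for each library, labelled by replicate number. Right, summed TPM of the 8 cochaperone genes divided by that of the pair, with each library a point and each bar a mean; RPD3 KO lies between 2.96 and 3.05 and the other strains between 1.06 and 1.51.

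STI1, whose product bridges Hsp70 and Hsp90 and slows the ATPase, had the largest fall among the cochaperone genes in RPD3 KO; in SWI3 S237A the fall of CPR6 (6.91-fold) was slightly larger. It had 1766, 1617 and 1781 CPM in wild type, 1539, 1520 and 1611 in RPD3 S418A, 255, 267 and 249 in SWI3 S237A and 175, 180 and 175 in RPD3 KO. No strain overlapped another, although RPD3 S418A against wild type did not pass (log2 -0.14 ± 0.06, adjusted p = 0.265), in a comparison where the 3 libraries of 8.69% of all targets lie below those of wild type. The fall was 9.74-fold in RPD3 KO (log2 -3.28 ± 0.07, adjusted p = 2e-12) and 6.70-fold in SWI3 S237A (log2 -2.74 ± 0.07, adjusted p = 1.23e-11).

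AHA1 encodes the strongest known activator of the Hsp90 ATPase, and HCH1 a smaller relative that matches its N-terminal part. AHA1 had 686, 674 and 722 CPM in wild type and 634, 635 and 728 in RPD3 S418A, against 104, 115 and 103 in SWI3 S237A and 83.8, 92.4 and 80.5 in RPD3 KO. HCH1 had 206, 187 and 202 CPM in wild type and 180, 198 and 195 in RPD3 S418A, against 64.6, 69.9 and 69.7 in SWI3 S237A and 71.9, 79.1 and 70.7 in RPD3 KO. Both fell in both mutants, AHA1 8.11-fold in RPD3 KO (log2 -3.02 ± 0.09, adjusted p = 3.16e-11) and 6.45-fold in SWI3 S237A (log2 -2.69 ± 0.09, adjusted p = 9.47e-11), and HCH1 2.68-fold (log2 -1.42 ± 0.07, adjusted p = 3.74e-09) and 2.91-fold (log2 -1.54 ± 0.07, adjusted p = 2.88e-09). Their ratio in TPM therefore turned over: the log2 of AHA1 over HCH1 was 0.25 ± 0.07 in wild type, 0.26 ± 0.11 in RPD3 S418A, -0.91 ± 0.09 in SWI3 S237A and -1.35 ± 0.03 in RPD3 KO (exact permutation p = 0.000519, 0.000866 adjusted over 4 such ratios).

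CPR6 and CPR7 encode related cyclophilins, peptidyl-prolyl isomerases with a TPR domain that docks on Hsp90, and they behaved differently. CPR6 had 1197, 1195 and 1228 CPM in wild type, 1150, 1194 and 1287 in RPD3 S418A, 178, 177 and 169 in SWI3 S237A and 196, 201 and 188 in RPD3 KO. It fell 6.18-fold in RPD3 KO (log2 -2.63 ± 0.07, adjusted p = 1.54e-11) and 6.91-fold in SWI3 S237A (log2 -2.79 ± 0.07, adjusted p = 1.16e-11). CPR7 had 42.3, 40.8 and 35.4 CPM in wild type, 42.6, 35.0 and 36.9 in RPD3 S418A, 43.4, 44.2 and 44.7 in SWI3 S237A and 42.5, 41.3 and 40.5 in RPD3 KO. CPR7 did not pass against wild type in RPD3 KO (log2 0.07 ± 0.08, interval -0.11 to 0.25, adjusted p = 0.482) or in SWI3 S237A (log2 0.16 ± 0.08, interval -0.02 to 0.34, adjusted p = 0.12); under scaling by total counts only, the RPD3 KO value was 0.25 and passed (adjusted p = 0.0208). The log2 TPM ratio of CPR6 over CPR7 went from 5.0 ± 0.16 in wild type and 5.06 ± 0.19 in RPD3 S418A to 2.05 ± 0.06 in SWI3 S237A and 2.29 ± 0.04 in RPD3 KO (exact permutation p = 0.00123, the same when adjusted over the 4 ratios).

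SBA1 and CDC37 fell by less than 2-fold. SBA1 encodes the yeast p23 protein, which holds the closed dimer, and CDC37 the cochaperone that recruits kinases. SBA1 had 465, 479 and 469 CPM in wild type, 476, 490 and 528 in RPD3 S418A, 401, 397 and 398 in SWI3 S237A and 342, 382 and 351 in RPD3 KO. CDC37 had 146, 143 and 133 CPM in wild type, 167, 146 and 134 in RPD3 S418A, 106, 95.5 and 102 in SWI3 S237A and 81.6, 84.8 and 80.1 in RPD3 KO. Both mutants lie below wild type without overlap for both genes in CPM. The share of all targets separated in this way was not determined for these 2 comparisons, so nothing is read from it. In them 38.0% (RPD3 KO) and 31.3% (SWI3 S237A) of all targets passed as lower. SBA1 fell 1.31-fold in RPD3 KO (log2 -0.39 ± 0.07, adjusted p = 0.000181) and 1.18-fold in SWI3 S237A (log2 -0.24 ± 0.07, adjusted p = 0.00757). In the authors' deposited table, whose set of samples was not established, the SWI3 S237A value of SBA1 did not pass (log2 -0.22, adjusted p = 0.0868). In TPM the SBA1 range in SWI3 S237A, 612 to 656, overlapped the 635 to 722 of wild type. CDC37 fell 1.71-fold in RPD3 KO (log2 -0.78 ± 0.08, adjusted p = 2.79e-06) and 1.39-fold in SWI3 S237A (log2 -0.47 ± 0.08, adjusted p = 0.000302).

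CNS1, an essential cochaperone gene whose TPR protein is linked in yeast to the elongation factor eEF2 and, genetically, to CPR7, was the only one of the 10 that rose. It had 134, 129 and 140 CPM in RPD3 KO replicates 4, 12 and 20 and 69.9, 73.3 and 78.7 in SWI3 S237A. It had 26.7, 29.0 and 25.9 CPM in RPD3 S418A and 56.2, 25.4 and 28.1 in wild type replicates 1, 9 and 17. Wild type replicate 1 stood above the other wild-type libraries but below both mutants. The rise was 3.68-fold in RPD3 KO (log2 1.88 ± 0.24, adjusted p = 4.3e-05) and 2.02-fold in SWI3 S237A (log2 1.02 ± 0.24, adjusted p = 0.00383). Without wild type replicate 1 these were log2 2.33 and 1.47, and the RPD3 S418A value moved from -0.43 to 0.03, which passed in neither case. The STI1 to CNS1 log2 TPM ratio ran from 4.83 ± 0.59 in wild type and 5.02 ± 0.13 in RPD3 S418A to 0.97 ± 0.12 in SWI3 S237A and -0.43 ± 0.07 in RPD3 KO, where CNS1 exceeded STI1 (exact permutation p = 0.000649, adjusted 0.000866).

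**Figure D3:**
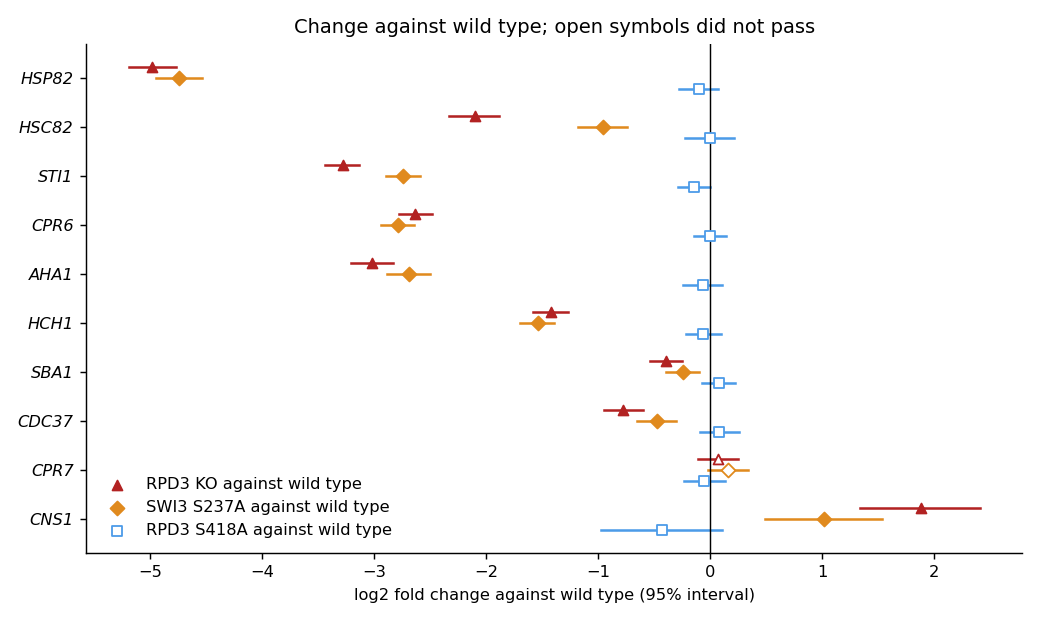
Log2 fold change against wild type with its 95% interval for the 10 genes in RPD3 KO (triangles), SWI3 S237A (diamonds) and RPD3 S418A (squares); filled symbols passed. The falls run from HSP82 at -4.98 to SBA1 at -0.24, CPR7 lies near 0, CNS1 lies on the right in RPD3 KO and SWI3 S237A, and every RPD3 S418A symbol is open.

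RPD3 KO and SWI3 S237A were then compared with each other, since 1 fall larger than another is not by itself a difference. SWI3 S237A was higher in 5 genes and lower in 2, against 32.3% and 32.1% of all targets (1520 higher and 2587 lower in place of 2042 and 2033 under scaling by total counts only). Besides HSC82, STI1 was higher (log2 0.54 ± 0.07, adjusted p = 1.34e-05), and AHA1 (log2 0.33 ± 0.08, adjusted p = 0.00354), CDC37 (log2 0.30 ± 0.08, adjusted p = 0.00587) and HSP82 (log2 0.24 ± 0.08, adjusted p = 0.0222) were higher by small amounts. CNS1 was lower in SWI3 S237A (log2 -0.86 ± 0.23, adjusted p = 0.00774), as was CPR6 (log2 -0.16 ± 0.07, adjusted p = 0.0474). SBA1 (adjusted p = 0.0625), HCH1 (adjusted p = 0.161) and CPR7 (adjusted p = 0.364) did not pass. The calls of HSP82 and CPR6 rest on having all 6 libraries: HSP82 was lost without any 1 of them other than RPD3 KO replicate 12 (adjusted p 0.0506 to 0.123), and CPR6 without any 1 other than SWI3 S237A replicate 2 (adjusted p 0.0561 to 0.157). CDC37 was lost without SWI3 S237A replicate 2 (adjusted p = 0.0729), and SBA1 passed without RPD3 KO replicate 12 (adjusted p = 0.0302). Under total counts only, HSP82 (adjusted p = 0.205) and CDC37 (adjusted p = 0.0961) were lost and HCH1 passed as lower (log2 -0.25, adjusted p = 0.0048).

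The order of the strains thus took 3 forms. HSC82, STI1 and AHA1, with CDC37 and HSP82 less firmly, ran from wild type and RPD3 S418A, which did not pass against each other, through SWI3 S237A down to RPD3 KO. CPR6 and HCH1 had RPD3 KO at or slightly above SWI3 S237A, and CNS1 ran in the opposite order with RPD3 KO highest. Against RPD3 KO, RPD3 S418A was higher in 8 of the 10 genes and lower in CNS1, where 39.4% of all targets were higher and 33.3% lower (42.6% of the calls were higher under total counts only, against 54.2%); CPR7 did not pass (adjusted p = 0.222), but did without RPD3 S418A replicate 3 (adjusted p = 0.0377). SWI3 S237A against RPD3 S418A had 8 genes lower and 2 higher, against 33.9% and 31.9% of all targets; the second rise, CPR7 (log2 0.21 ± 0.08, adjusted p = 0.0441), was lost without any 1 of the 6 libraries other than RPD3 S418A replicate 3 (adjusted p 0.0578 to 0.179).

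The balance between the pair and its partners moved in RPD3 KO. Summed over the 8 genes, cochaperone TPM was 3566 ± 148 in wild type, 3405 ± 84.8 in RPD3 S418A, 1350 ± 32.5 in SWI3 S237A and 1349 ± 18.2 in RPD3 KO. Summed Hsp90 TPM was 2991 ± 63.8, 2806 ± 350, 914 ± 55.4 and 450 ± 12.2 in the same order. TPM carries no TMM factor, and these factors were 0.928 to 0.981 in wild type, 0.968 to 1.02 in SWI3 S237A and 1.07 to 1.1 in RPD3 KO. The sums therefore compare strains only roughly, while a ratio within a library does not depend on that scaling. The ratio of cochaperone to Hsp90 message was 1.11, 1.21 and 1.25 in wild type, 1.06, 1.24 and 1.38 in RPD3 S418A, 1.42, 1.51 and 1.5 in SWI3 S237A and 2.98, 2.96 and 3.05 in RPD3 KO (exact permutation p = 0.000844). In CPM, without the correction for length, the means were 0.631, 0.635, 0.628 and 1.23, so the position of RPD3 KO above the other strains holds in both units and that of SWI3 S237A above wild type only in TPM.

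**Figure D4:**
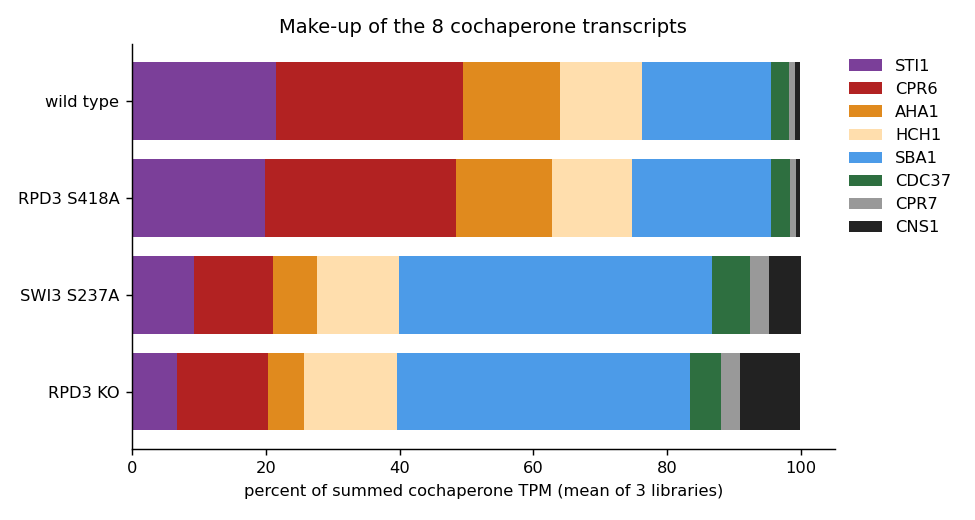
Mean share of each cochaperone gene in the summed cochaperone TPM of a strain, 3 libraries each. SBA1 goes from 19.3% in wild type to 46.8% in SWI3 S237A and 43.7% in RPD3 KO, and CNS1 from 0.805% to 4.76% and 9.02%.

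Within the cochaperone message, CPR6 (28.0 ± 0.466%) and STI1 (21.5 ± 0.659%) were the largest shares in wild type, followed by SBA1 (19.3 ± 0.841%), AHA1 (14.5 ± 0.314%) and HCH1 (12.2 ± 0.461%). In RPD3 KO SBA1 made up 43.7 ± 1.00%, CPR6 13.6 ± 0.368%, HCH1 13.9 ± 0.207%, CNS1 9.02 ± 0.66% and STI1 6.70 ± 0.166%. CPR7 was 0.878 ± 0.0915% in wild type and 2.78 ± 0.146% in RPD3 KO, a shift in share of a transcript whose CPM did not pass the test. In TPM, CPR7 itself ran from 28.6 to 33.2 in wild type, 36.1 to 39.4 in RPD3 KO and 37.7 to 39.0 in SWI3 S237A. These TPM values lack the TMM factors that the CPM values carry.

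Letters matching heat shock units, to which Hsf1 binds, were looked for in the 500 bases before the start codon of 6019 coding genes, on both strands. TTCNNGAA, a pair of units, occurred before 7 of the 10 genes (HSP82, HSC82, STI1, CPR6, AHA1, SBA1 and HCH1) and in 21.1% of all windows, and GAANNTTC before 4 and in 19.2%. A run of 3 alternating units, that is, a TTCNNGAA and a GAANNTTC sharing 1 unit and so counted in both shorter forms, occurred before STI1 and AHA1 and in 1.48% of windows. The exact letters TTCTAGAA, picked after the sequences were seen, occurred before 5 of the 10 and in 2.13% of windows, and AGGGG, the stress element, before HSP82 and SBA1 and in 34.0%. These are descriptions of letters in this window, and CDC37, CPR7 and CNS1 hold no TTCNNGAA there. The stretches around TTCNNGAA matches at least 100 bases before the start codon are shown for the 6 genes that have them, with the units of TTCNNGAA and of any GAANNTTC match inside the stretch in capitals, 5′ to 3′ toward the gene. TTCNNGAA matches not shown lie 67 bases before the start codon of HSP82, 48 before that of HSC82 and 68 before that of SBA1. GAANNTTC matches not shown lie 492 bases before the start codon of CDC37 and elsewhere before CPR6 and AHA1.
HSP82 (chrXVI:98841-98872, minus strand): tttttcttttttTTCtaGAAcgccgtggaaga
HSC82 (chrXIII:632126-632189, plus strand): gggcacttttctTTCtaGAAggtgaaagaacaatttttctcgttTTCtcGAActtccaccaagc
STI1 (chrXV:380799-380861, plus strand): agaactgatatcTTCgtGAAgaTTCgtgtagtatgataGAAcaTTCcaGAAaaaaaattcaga
CPR6 (chrXII:573330-573361, minus strand): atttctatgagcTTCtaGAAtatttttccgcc
AHA1 (chrIV:892567-892598, plus strand): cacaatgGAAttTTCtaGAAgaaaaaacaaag
HCH1 (chrXIV:108289-108320, plus strand): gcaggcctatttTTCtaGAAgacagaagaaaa
HSC82 and HSP82 both hold the letters TTCTAGAA, at 217 and 235 bases before the start codon. Whether any of these letters bear on the falls was not tested.

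Transcript levels of the activators themselves are given as a measurement. HSF1, the heat shock factor gene, had 91.4 CPM in wild type, 93.4 in RPD3 KO and 88.0 in SWI3 S237A and did not pass (adjusted p = 0.651 and 0.427). MSN2 did not pass either (adjusted p = 0.604 and 0.493), while MSN4, which encodes the partner of the general stress activator Msn2, stood at 93.2 CPM in wild type and dropped to 24.4 in RPD3 KO (log2 -1.93 ± 0.09, adjusted p = 2.29e-09) and 45.6 in SWI3 S237A (log2 -1.03 ± 0.09, adjusted p = 9.24e-07). MSN4 was higher in RPD3 S418A than in wild type, at 126 CPM (log2 0.43 ± 0.09, adjusted p = 0.0245).

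The Hsp70 list held the chaperone genes SSA1, SSA2, SSA3 and SSA4 and genes of their partners, which act on clients before Hsp90. Of its 10 genes 9 fell in RPD3 KO, with a median log2 of -2.39, where 38.0% of all targets fell. The smallest of these falls, SSA3, was close to the threshold (log2 -0.17 ± 0.07, adjusted p = 0.0497). Calls of list genes were not recomputed under total counts only, where the median of all targets shifted by 0.18. In SWI3 S237A 8 fell and 1 rose, with a median of -2.10, beside 31.3% and 28.7% of all targets. The nucleotide exchange factor gene SSE2 went from 636 to 62.1 CPM in RPD3 KO (log2 -3.36 ± 0.09, adjusted p = 1.85e-11), and SIS1, a J-domain partner of Hsp70, from 1544 to 82.5 (log2 -4.23 ± 0.13, adjusted p = 3.58e-11). SNL1, a membrane-bound Hsp70 regulator, did not pass (log2 0.18 ± 0.08, adjusted p = 0.0621).

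Of 11 other genes of Hsp90 cochaperones and assembly factors, 8 rose and 1 fell in RPD3 KO, with a median log2 of 0.33, beside 31.9% and 38.0% of all targets. In SWI3 S237A 3 fell and 8 did not pass, a share of falls near the 31.3% of all targets. Whether this list differs from the 10 genes was not tested. SGT1, which links Hsp90 to kinetochore assembly, rose from 49.6 to 66.8 CPM in RPD3 KO (log2 0.43 ± 0.07, adjusted p = 0.000148). SHE4, a myosin chaperone gene, dropped to 27.7 from 53.4 CPM (log2 -0.95 ± 0.09, adjusted p = 1.04e-06), and TTI2, of the factor complex that matures large kinases, did not pass (log2 -0.07 ± 0.10, adjusted p = 0.585).

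Of 9 genes of Hsp90 clients 3 rose and 3 fell in RPD3 KO (median log2 0.01), and 2 rose and 3 fell in SWI3 S237A (median log2 -0.04). These counts are close to the shares over all targets, 31.9% higher and 38.0% lower in RPD3 KO and 28.7% and 31.3% in SWI3 S237A, and so are no result about the clients. SLT2, the cell wall integrity kinase gene, was at 199 CPM in wild type and 63.8 in RPD3 KO (log2 -1.64 ± 0.12, adjusted p = 1.07e-07) and CMP2, a calcineurin subunit gene, from 170 to 99.5 (log2 -0.78 ± 0.08, adjusted p = 3.02e-06), while its paralogue CNA1 did not pass (log2 0.01 ± 0.09, adjusted p = 0.903). Of 6 cyclophilin genes other than CPR6 and CPR7, 1 rose and 2 fell in RPD3 KO, CPR5 of the endoplasmic reticulum (log2 -0.95 ± 0.08, adjusted p = 3.92e-07) and CPR3 of mitochondria (log2 -0.48 ± 0.08, adjusted p = 0.000151); with 6 genes nothing is read from these counts against the same shares. The abundant cytosolic CPR1 did not pass (log2 -0.08 ± 0.09, adjusted p = 0.447).

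**Figure D5:**
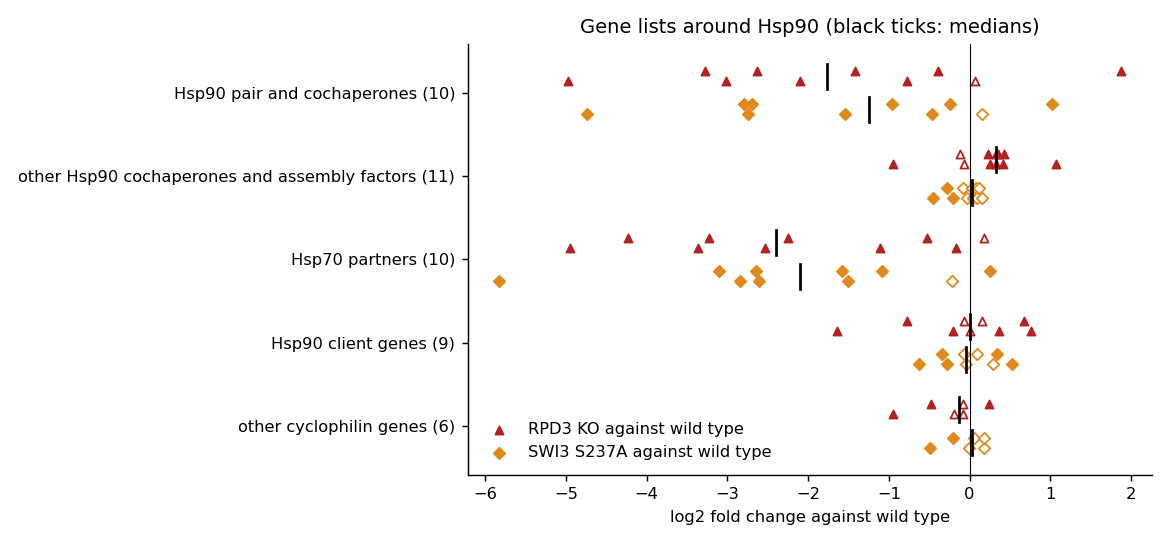
Log2 fold change against wild type for the members of 5 gene lists in RPD3 KO (triangles) and SWI3 S237A (diamonds); filled symbols passed, open symbols did not, and black ticks are medians. The Hsp90 genes and the list of Hsp70 partners, which includes SSA1, SSA2, SSA3 and SSA4, lie mostly left of 0. The other Hsp90 cochaperones and assembly factors lie mostly right of 0 in RPD3 KO (median 0.33) and around it in SWI3 S237A (median 0.03). The remaining lists lie around 0.

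The genes whose pattern over the 12 libraries was most like a member's were named by Pearson's r of log2(CPM + 1); the libraries fall into 4 strains, so r mainly follows the strain means. For HSP82 they were HSP30 (r = 0.9978), SSE2 (0.9971), SSA1 (0.996), KAR2 (0.9957) and HSP60 (0.9942), chaperone genes apart from HSP30, a membrane heat shock protein gene. For HSC82 they were APA1 (r = 0.9954), PEX32 (0.9942) and FYV10 (0.9925), and for CDC37 VID30 (0.9936), HOL1 (0.9845) and STE18 (0.9832). For CNS1, added after its values were seen, they were LRP1 (r = 0.996), RRP1 (0.9954) and PWP1 (0.9951), which are genes of ribosomal RNA processing.

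The authors' deposited comparisons had 8 of the 10 genes lower and 1 higher in RPD3 KO, 7 lower and 1 higher in SWI3 S237A, and 0 that passed in RPD3 S418A. The authors' deposited table gave HSP82 a log2 fold change of -4.93 in RPD3 KO with a standard error of 0.47 and CNS1 one of 1.93 with 0.29. DESeq2 run here on the 12 libraries gave HSP82 the same -4.93 with a standard error of 0.08. Which samples entered the deposited fit was not established, so its errors and calls may rest on another set of samples. The directions equal those found here for every gene that passed in both.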

How the data were processed

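The deposited files hold, per library and per the file headers, an estimated count and TPM for each of 6713 targets, with target and effective lengths. The submitters' processing notes list Trimmomatic 0.36, kallisto 0.44.0 and the R64 build; no source used here gives the strand setting. The authors' deposited DESeq2 tables give a mean signal, a log2 fold change with its error, a test score, and p-values before and after adjustment.

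Estimated counts were rounded and fitted in R 4.3.3 with edgeR 4.0.16: 1 robust quasi-likelihood fit over the 12 libraries, TMM scaling, the default low-count filter (6327 targets kept) and 6 strain contrasts, called at an adjusted p under 0.05. The SE is the log2 value over the root of its F. The method was tested on simulated data with known changes in a small part of the targets, up or down at random. Over the 6 comparisons it recovered 70.1% (RPD3 S418A against wild type) to 88.1% of 1.5-fold changes and 94% to 98.5% of 2-fold changes. Of its calls 1.6% to 3.8% were false. A gene that did not pass can thus still have changed by about 1.5-fold. Changes as widespread as those in RPD3 KO were not simulated, so scaling in that setting was not tested. Alternatives were RLE scaling, total counts only, no filter, DESeq2 1.42.0, only the 2 strains compared, each library left out, and CPM or TPM + 1 for ratios. Members' coding lengths equal the R64 reference from RefSeq, from which all sequences were read. The members and lists were chosen with earlier results of these data known. All 10 members are named; from each list, the 2 genes with the smallest p and the 1 with the largest p in RPD3 KO against wild type, and the 3 activator genes. CNA2 is listed as CMP2 in the reference. Symbols came from that reference, which matched 6026 targets and not the other 687. Columns not used numbered 0.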

Additional observations from a re-analysis of the deposited data

How the results depend on the processing

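Of 660 log2 values of single members recomputed under an alternative, 635 kept their direction and side of the threshold, 19 lost a call, 6 gained one and 0 reversed. All 25 changes concern SWI3 S237A against RPD3 KO or CPR7. Under total counts only, 2 members were higher in RPD3 KO than in wild type, 2 were lower in RPD3 S418A than in RPD3 KO and 3 were higher in SWI3 S237A than in RPD3 KO; without a low-count filter 1 was lower in SWI3 S237A than in RPD3 KO. With 1 library left out, members lower in RPD3 S418A than in RPD3 KO numbered 1 to 2, members higher in SWI3 S237A than in RPD3 KO 3 to 6 and lower 1 to 2, and members higher in SWI3 S237A than in RPD3 S418A 1 to 2. Over all targets, 128 passed in RPD3 S418A against wild type, 313 with DESeq2, 29 with only the 2 strains, and 60 to 272 with 1 library left out, the last without wild type replicate 1; the cause was not tested. The summed pair kept its direction and call in RPD3 KO and SWI3 S237A against wild type under every alternative, from -2.98 to -2.75 and from -1.90 to -1.82. Ratio tests stayed under 0.05 in every alternative, with p up to 0.0179 for the cochaperone to Hsp90 ratio. The strains share no replicate numbers, so no paired fit was made. The numbers run from 1 to 4, 9 to 12 and 17 to 20 with each strain once in each run; the labels do not say what a run is, and a fit with the runs as a block was not made.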
